A study of Caenorhabditis elegans with 40 samples.

Results

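Binding of HSF-1, which activates transcription on heat shock, was described at ubq-1, the polyubiquitin gene of Caenorhabditis elegans, and at rpn-2, which encodes a subunit of the proteasome. Both genes were chosen by the listed HSF-1 peaks at 20 °C, since one lay at or beside each of them, so their peaks at 20 °C are a description and are not tested. They are 2 of 19973 protein-coding genes in the annotation. Of 941 summits common to the control animals, 441 after heat shock and 500 at 20 °C, 5 lay within 2000 bp of an annotated transcription start site (TSS) of these genes. After heat shock at 34 °C each gene had 1 common summit, and neither summit stood in a list of sites lost on depletion as used here. Whether the lists used here hold every row for this stretch of chromosome III is not known, so that standing in no class says only that no row was found. At 20 °C ubq-1 had 2 common summits and rpn-2 had 1, and all of them were listed. Lists, scores and annotation are as deposited or as released, and no comparison here has a replicate error.

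The animals were young adults of 2 strains, and every group, controls included, carried hsf-1::aid::gfp, in which endogenous HSF-1 is fused to an auxin-inducible degron and to GFP, together with unc-119(ed3). TIR1 is the plant F-box protein through which auxin triggers breakdown of a degron-tagged protein by the proteasome. It came from ieSi57 under the eft-3 promoter in JTL611 (soma) and from ieSi38 under the sun-1 promoter in JTL621 (germline). Animals spent 2 h on auxin plates (depletion) or on ethanol plates (control). They were then kept in a water bath at 34 °C for 30 min (heat shock) or collected directly (20 °C). Chromatin of whole animals was precipitated with an antibody to GFP and sequenced in 16 libraries, 8 groups of 2. Whether both libraries of a group are from separate cultures is not stated. The lists assign a site to the soma class, the germline class or the shared class, according to whether its signal was lost on depletion in the soma strain, in the germline strain or in both. In whole animals a site bound in fewer cells and a site bound less strongly in each cell cannot be told apart.

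Ubiquitin is made as head-to-tail repeats or as fusions, which proteases cut into single units. The units are loaded by an activating enzyme, passed on by conjugating enzymes and ligases, and attached to proteins as chains that the proteasome reads. The proteasome consists of a proteolytic core particle and a regulatory particle, whose base unfolds the substrate and whose lid removes the chain. RPN-2 belongs to the base, where its yeast and mammalian counterparts hold the receptors for ubiquitin. HSF-1 binds the promoters of chaperone genes after heat shock, and in C. elegans it also acts in development without heat.

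The summit files held scores, without unit, that the authors gave to each peak. These were used only within a condition, because what they are relative to is not stated. After heat shock the scores ranged from 40.8 to 322070 with a median of 2884, and at 20 °C they ranged from 23.7 to 234251 with a median of 470.5. Of the 441 common summits after heat shock, 64 were soma sites, 257 were shared and 92 were germline sites, and 28 were in none of these classes. Of the 500 at 20 °C the numbers were 47, 242 and 179, and 32 were in none. The depth of the libraries is unknown. The sources used here do not give the genome build of the files, and the TSS positions are those of WBcel235. On chromosome III, which carries both genes, 7 of 56 summits after heat shock and 22 of 74 at 20 °C had a protein-coding TSS within 300 bp. With all summits moved by 500 bp to the left these counts were 9 and 17, and to the right 9 and 14. On this chromosome the fit of the coordinates was thus best as deposited at 20 °C and was not resolved after heat shock. Over all chromosomes the margin was narrower. At 20 °C 99 summits fitted as deposited, 81 moved to the left and 93 moved to the right. After heat shock the counts were 54, 56 and 58. The distances to a TSS given below rest on this fit.

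The polyubiquitin gene ubq-1 (WBGene00006727) lies on the plus strand of chromosome III at 5940254 to 5943841. It has 2 annotated start sites 732 bp apart, at 5940254 for transcript F25B5.4.2 and at 5940986 for F25B5.4.1. Upstream of it 3033 bp separate it from EGAP1.1, which runs in the opposite direction. No other protein-coding TSS lay within 2000 bp of any summit at ubq-1.

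After heat shock the summit at ubq-1 lay at 5939340, in intergenic sequence 914 bp upstream of the first TSS and 1646 bp upstream of the second. Its peak score was 114.3, rank 420 of 441. It was thus among the weakest common summits of heat-shocked animals, and it stood in no class. Its score was below that of every one of the 257 shared-class summits after heat shock, of which the lowest had 266.7. In the other classes, 10 of 64 soma-class summits and 1 of 92 germline-class summits had a lower score.

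At 20 °C the first summit at ubq-1 lay at 5939314, 940 bp upstream of the first TSS and 26 bp from the summit seen after heat shock. It was in the shared class with a peak score of 723.4, rank 209 of all 500 summits and rank 184 of the 242 in its class, where the median was 2079. It was thus a site of middle rank in the file and of lower rank among shared sites. The region lost on soma depletion ran from 5939117 to 5939591 (475 bp) with a differential score of 22.5, against a class median of 30.6. The region lost on germline depletion ran from 5939039 to 5939637 (599 bp) with a differential score of 272.0, against a class median of 340.7. The regions overlap almost end to end, the soma region having 79.3% of the length of the germline region. The soma and germline differential scores come from libraries of different strains, and their sizes are not compared with each other.

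The second ubq-1 summit at 20 °C lay at 5940154, 100 bp upstream of the first TSS and 832 bp upstream of the second. It was in the soma class with a peak score of 113.1, rank 393 of 500 in the file and rank 26 of 47 in the class, where the median was 120.5. Its soma differential score was 16.6, rank 38 of 47, with a class median of 24.1. It was therefore a weak site, close to the start site, that was listed for depletion in the soma and not in the germline. The region lost on soma depletion, 205 bp from 5940049 to 5940253, ended 1 bp before the TSS. No germline region was listed there, which does not show that the germline lacks HSF-1 at this position. After heat shock the common summit nearest to it was the distal one, 814 bp away.

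The ubq-1 summits at 20 °C were 840 bp apart and carried letters of a single peak call. Their soma regions were separated by 457 bp, and 411 bp separated the germline region of the distal summit from the soma region of the proximal one. Of 100 peaks with lettered summits at 20 °C, 45 kept more than 1 common summit, and 21 of those held summits of more than 1 class. The median spacing in such peaks was 760 bp. Only 2 of the 100 held soma-class and shared-class summits and nothing else, the ubq-1 peak among them. After heat shock 81 peaks had lettered summits, of which 22 kept only 1 common summit, the ubq-1 peak among them. Where any other summit of that ubq-1 peak lay is not known. The median spacing was 790 bp after heat shock, and 12 peaks were of mixed class. None of these 12 combined soma and shared summits alone. Counted by gene, 12 of the 385 genes with a class row at 20 °C (3.12%) had rows of more than 1 class. Of these 12, 3 had soma and shared rows without a germline row, namely ubq-1, pck-2 and R11A5.6. The last 2 were chosen after their values were seen.

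**Figure D1:**
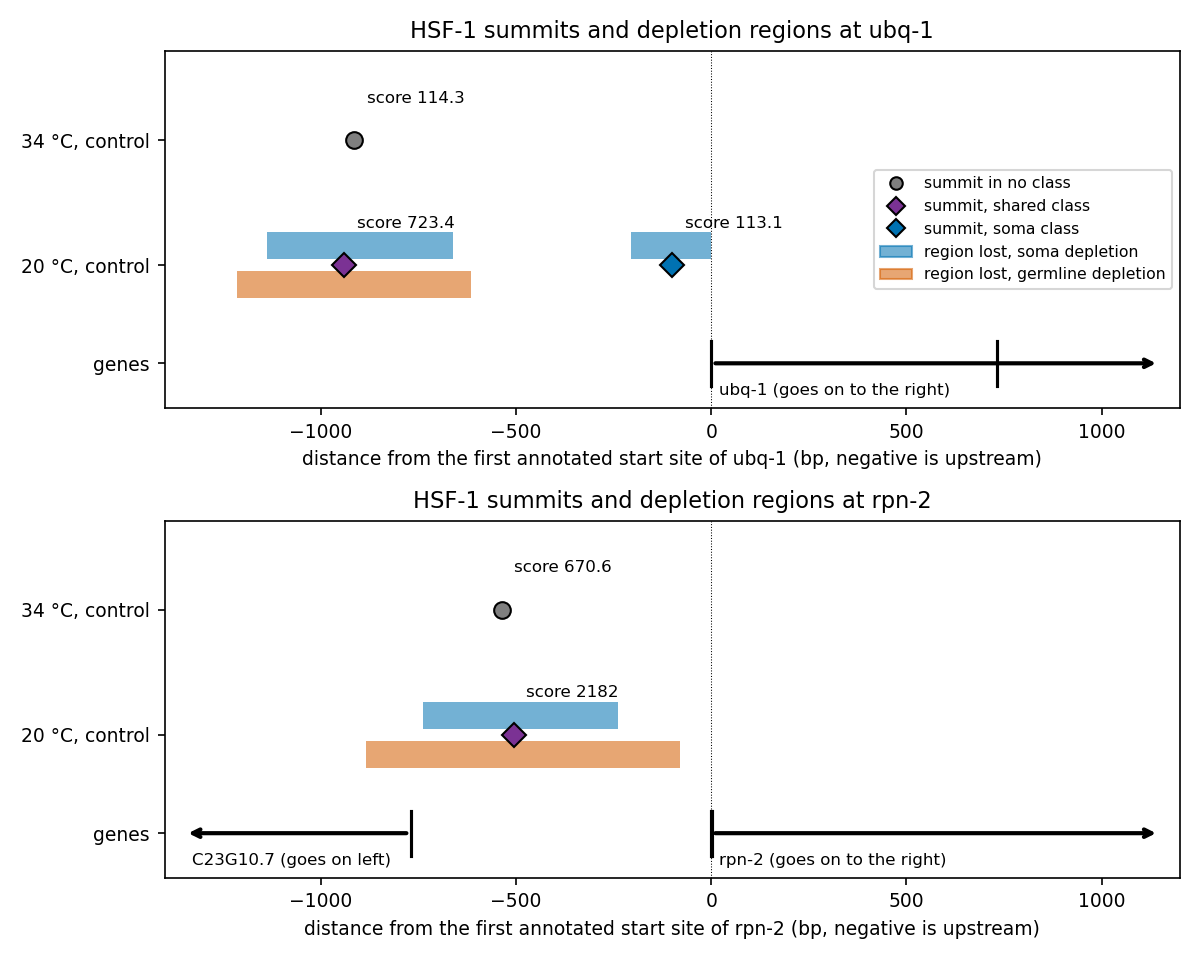
Common HSF-1 summits (symbols, with the authors' peak scores) and the regions lost on soma or germline depletion (bars) around ubq-1 (top) and rpn-2 (bottom), by distance in bp from the first annotated start site, with 34 °C above 20 °C. The distal ubq-1 summit (914 and 940 bp upstream) and the rpn-2 summit (537 and 506 bp upstream) occur at both temperatures. The ubq-1 summit 100 bp upstream, with its soma region alone, is among the common summits only at 20 °C.

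The proteasome gene rpn-2 (WBGene00004459) lies on the plus strand of chromosome III at 6199184 to 6202594. Its transcripts C23G10.4b.1 and C23G10.4a.1 start at 6199184 and 6199186. It shares its upstream region with C23G10.7 (WBGene00016014), which lies on the minus strand at 6195981 to 6198414. The start sites of this divergent pair are 770 bp apart, and the HSF-1 summit lay between them, nearer to C23G10.7. Binding there therefore cannot be assigned to rpn-2 rather than to its neighbour from position alone.

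After heat shock the summit lay at 6198647, 537 bp upstream of rpn-2 and 233 bp upstream of C23G10.7. It had a peak score of 670.6, rank 312 of 441, and stood in no class. Among the 28 common summits of heat-shocked animals outside every class it had the highest score, where ubq-1 ranked 18. Those 28 ranged from 60.5 to 670.6, with a median of 130.2. Of the 413 listed summits after heat shock, 102 had a lower score than the rpn-2 summit. They were 44 of 64 soma sites, 9 of 257 shared sites and 49 of 92 germline sites. The rpn-2 summit was thus stronger than most soma-class summits that were listed, yet it was in no list itself.

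At 20 °C the rpn-2 summit lay at 6198678, 506 bp upstream of rpn-2 and 264 bp upstream of C23G10.7. It was in the shared class with a peak score of 2182, rank 119 of 500 in the file and rank 117 of 242 in the class. Its score was thus close to the class median of 2079. The region lost on soma depletion, 497 bp from 6198447 to 6198943, had a differential score of 35.4, rank 102 of 242. It began 33 bp from the C23G10.7 TSS and ended 241 bp before that of rpn-2, so that it covered neither start site. The region lost on germline depletion, 804 bp from 6198299 to 6199102, had a differential score of 761.6, rank 70 of 242. This wider region took in the C23G10.7 TSS with 115 bp beyond it and ended 82 bp before the rpn-2 TSS. The soma region had 61.8% of its length. The 5 summits of both genes were well inside the limit of 2000 bp, the farthest being 940 bp from a start site of its gene. The next common summit to that of rpn-2 was 259307 bp away after heat shock and 28447 bp away at 20 °C.

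At both genes the site seen at the 2 temperatures was close to the same position. The offset was 26 bp at ubq-1 and 31 bp at rpn-2, in opposite directions along the chromosome. Over the 350 summits at 20 °C that had a common summit of heat-shocked animals at most 100 bp away, the median offset was 6 bp and the 90th percentile was 29 bp. In 44 of the 350 pairs the offset was at least that of ubq-1, and in 33 it was at least that of rpn-2. The offset of rpn-2 was thus above the 90th percentile and that of ubq-1 was below it. Both are small against the lost regions of 475 to 804 bp.

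Set against all genes, both of the 2 had a common summit after heat shock, as did 1.42% of protein-coding genes. Neither had a class row, and 1.28% of protein-coding genes did have one, so that having none was usual among all genes. Among genes with a common summit it was not usual. After heat shock 283 genes had a common summit and 255 of these had a class row. At 20 °C both had a common summit, against 2.04% of all genes, and both had a class row, against 1.93%, by the rule that chose them. Of the 385 genes with a class row at 20 °C, 234 (60.8%) had a common summit after heat shock. The genes ubq-1 and rpn-2 were 2 of the 22 (5.71%) that had a common summit but no class row after heat shock. Another 151 had no common summit, and 212 had a class row. The rule did not use the heat shock lists, but no test was made of so small a number of genes.

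Among the 124 shared-class summits at 20 °C with a TSS within 2000 bp, the class after heat shock was shared for 64, soma for 28 and germline for 8. For 5 there was a common summit in no class (4.03%), and for 19 there was none (15.3%). The rpn-2 summit had the highest score of those 5 at 20 °C, and the distal ubq-1 summit ranked 4 of 5. Both were therefore in the least frequent of the 5 outcomes for a shared site near a start site. The proximal ubq-1 summit belonged to a more frequent one. Of 30 soma-class summits near a TSS at 20 °C, 21 (70%) had no common summit after heat shock, 8 were again of the soma class and 1 was in no class. Within these 30 the proximal ubq-1 summit ranked 16 by peak score and 23 by soma differential score.

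**Figure D2:**
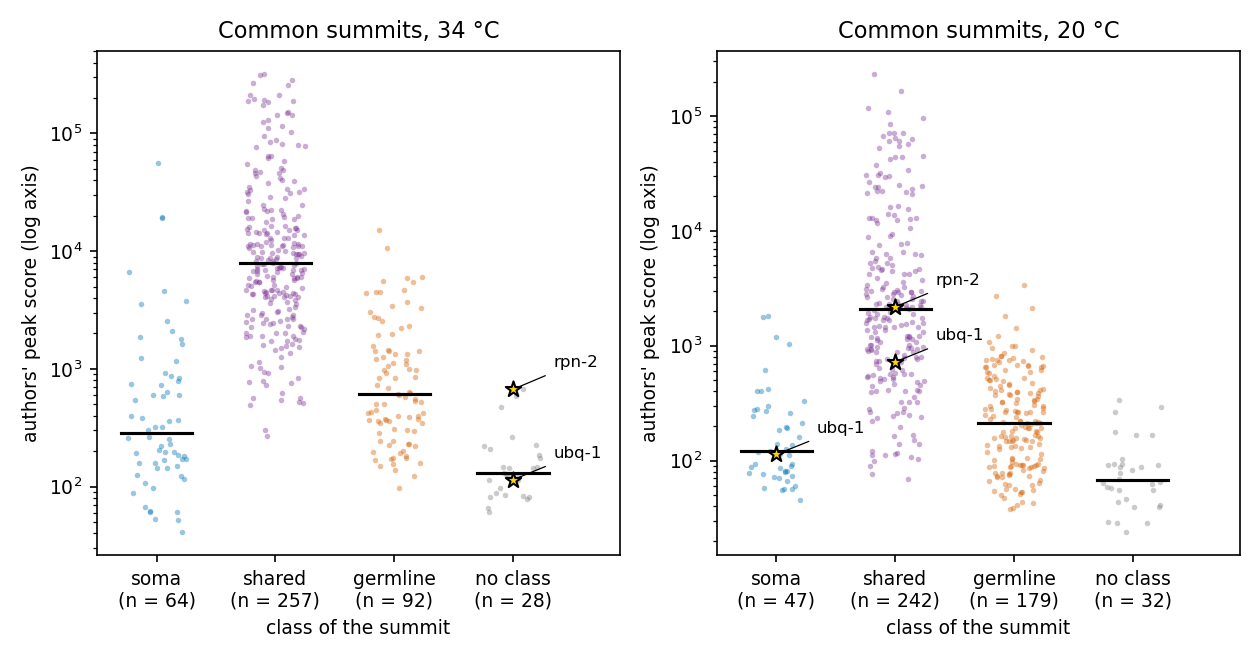
Authors' peak score (log axis) of every common summit by class, after heat shock at 34 °C (left) and at 20 °C (right); each point is a summit, black lines are class medians, and stars mark ubq-1 and rpn-2. After heat shock both genes are in no class, with scores of 670.6 and 114.3; at 20 °C rpn-2 lies near the shared median of 2079, the distal ubq-1 summit at 723.4 below it, and the proximal ubq-1 summit at 113.1 near the soma median of 120.5.

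By differential score, rpn-2 and ubq-1 ranked higher on the germline side than on the soma side among these 124 shared summits. The germline differential score of rpn-2 ranked 23 and that of ubq-1 ranked 47, around values of 761.6 and 272.0 against a median of 177.6. The soma differential score of rpn-2 ranked 49 and that of ubq-1 ranked 79, with values of 35.4 and 22.5 against a median of 28.8. By peak score rpn-2 ranked 47 and ubq-1 ranked 79, against a median of 1325. The 5 summits in no class after heat shock had a median germline differential score of 304.3. The median was 48.8 for those of the soma class after heat shock and 422.9 for those that were shared again. The median soma differential score was 22.5 for the 5, 34.4 for those of the soma class and 38.2 for those shared again. The ubq-1 summit is itself the median of the 5 on the soma axis. These values were chosen through the 20 °C lists and are a description.

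**Figure D3:**
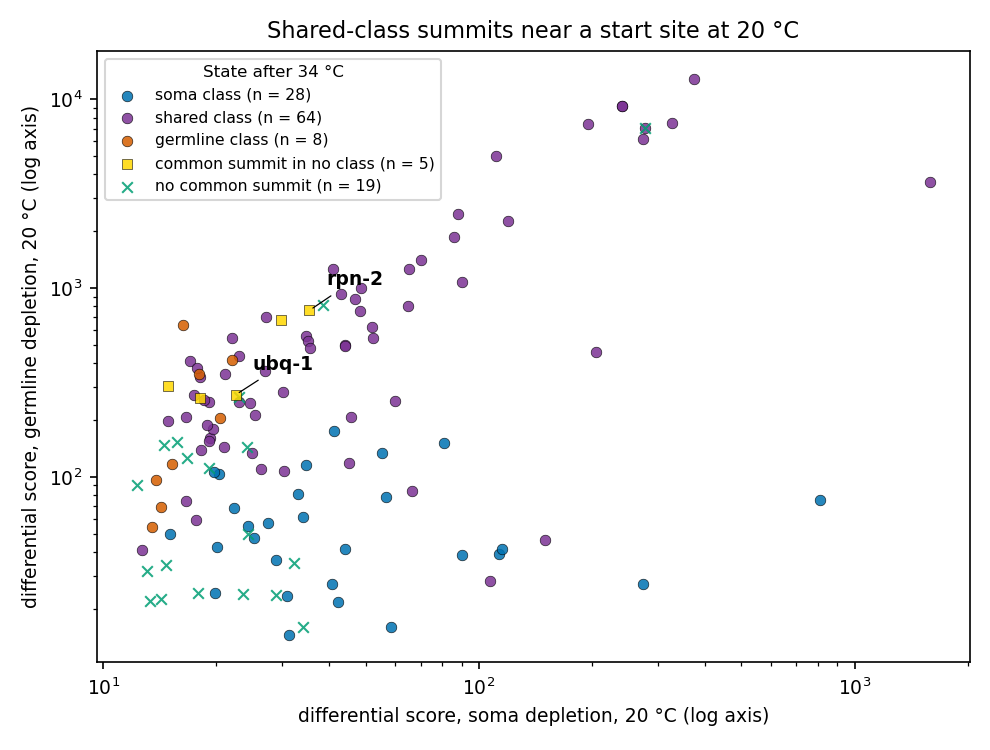
Differential score of germline depletion against that of soma depletion (both log axes) for the 124 shared-class summits at 20 °C with a start site within 2000 bp, coloured by their state after heat shock at 34 °C. The rpn-2 summit (35.4 and 761.6) and the distal ubq-1 summit (22.5 and 272.0) are 2 of 5 summits that were in no class after heat shock (squares), and the squares lie above all 28 summits of the soma class after heat shock.

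The summits most like those of ubq-1 and rpn-2 were taken as those of the same class at 20 °C and the same state after heat shock with the nearest peak score on the log2 scale. With 5 such shared summits in all, rpn-2 and ubq-1 had 4 candidates each. Nearest to rpn-2 was a summit on chromosome IV at 7958349 whose nearest start site is that of csr-1, an Argonaute gene of the germline. It scored 129.1 after heat shock and 1603 at 20 °C, a log2 difference of -0.45 from rpn-2. Nearest to ubq-1 was a summit on chromosome IV at 12567625 beside let-99, which acts in orienting the spindle of the early embryo. It scored 97.8 after heat shock and 631.7 at 20 °C, a log2 difference of -0.20 from ubq-1. A summit on chromosome I at 4171873 beside egg-5, a gene of the oocyte-to-embryo transition, was second in likeness to both. It scored 78.2 after heat shock and 911.0 at 20 °C. None of these summits had a single gene within 2000 bp after heat shock. A start site of frpr-10 also lay near the csr-1 summit, and those of eak-7 and hsb-1 near the let-99 summit. One of R12E2.11 lay near the egg-5 summit, so that position alone assigns none of them to the gene named. For the proximal ubq-1 summit, with 20 candidates, the nearest were soma-class summits beside mtm-3 (110.8), cyn-2 (125.8) and F58D5.5 (93.3), given by peak score at 20 °C. They lay 834 to 1486 bp from a start site, farther than the 100 bp of the ubq-1 summit. The likeness rests on class and score alone.

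Around both genes the listed sites of heat-shocked animals were far apart. In the lists used here, no row after heat shock lay between 4508518 and 8335819 on chromosome III, a distance of 3.83 Mb that was the longest of 407 between neighbouring listed summits. Rows may be missing there from the lists used here, and the absence of listed rows, and with it the class of both genes after heat shock, is given with that limit. The longest such distance on chromosome III at 20 °C was 0.841 Mb. The only common summits inside that interval after heat shock were those of ubq-1 and rpn-2. At 20 °C the interval held 10 common summits more than 100 bp from its ends, of which 7 were listed. The 7 were the soma and shared summits of ubq-1, the shared summit of rpn-2 and 4 germline-class summits. None of those 4 had a common summit after heat shock. The ubq-1 and rpn-2 summits after heat shock were 259307 bp apart, and at 20 °C their shared summits were 259364 bp apart. Whether this distribution has a part in the state of both genes was not tested.

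HSF-1 summits at other genes of ubiquitin and the proteasome were counted as well. Of 75 genes in 8 lists, 6 (8%) had a common summit after heat shock, and 6 (8%) at 20 °C, again counted up to 2000 bp from a TSS. Without ubq-1 and rpn-2 the counts were 4 of 73 and 4 of 73 (5.48% each), beside 1.42% and 2.04% of all protein-coding genes. The 7 genes with a summit at either temperature were ubq-1, rpn-2, rpn-3, pas-3, aip-1, uba-1 and ubql-1. Of 3 ubiquitin genes, ubq-1 was the one with a summit at both temperatures. Of 10 genes of the proteasome base, rpn-2 was the one with a summit at both. The summits of ubq-1 and rpn-2 at 20 °C were given by the rule that chose these genes, and that of rpn-2 was nearer to C23G10.7. None of 21 genes for conjugating enzymes had a summit at either temperature. Given the low shares of all genes above, no result about this short list is drawn from that.

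Within the regulatory particle, rpn-3 was the 1 of 10 lid genes with a summit, and it kept its shared class where rpn-2 did not. Its summit lay 226 bp upstream at 34 °C with a peak score of 7791, and 211 bp upstream at 20 °C with a peak score of 3542. After heat shock the nearest start site to it, 218 bp away, was that of hsp-110, a chaperone gene, so that this summit too lies between neighbouring genes. The soma and germline differential scores of rpn-3 were 162.9 and 44.7 after heat shock and 66.2 and 84.0 at 20 °C. At 20 °C rpn-3 thus had a higher soma and a lower germline differential score than rpn-2 (35.4 and 761.6). Of 14 core genes none had a summit after heat shock. The lid and core lists are short, and over all genes 1.42% had a summit after heat shock and 2.04% at 20 °C. At 20 °C pas-3, an alpha subunit gene, had a germline-class summit of score 53.5 that lay 1114 bp downstream of its start site. That summit was beyond the far end of pas-3 and 23 bp from the start site of chp-1.

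Unlike ubq-1 and rpn-2, 3 of the 75 genes of these lists were in the soma class after heat shock. Among all protein-coding genes 1.28% had a row of any class then. The share for the soma class alone was not counted, so that the 3 genes stand without a matching share. At uba-1, the gene of the ubiquitin-activating enzyme, the summit was in the soma class after heat shock with a score of 604.4 and in the germline class at 20 °C with 321.9. At aip-1, which encodes a proteasome-associated protein induced by arsenite, it was in the soma class after heat shock with 370.1 and in the shared class at 20 °C with 104.1. At ubql-1, the ubiquilin gene that encodes a shuttle factor, a soma-class summit of 592.7 was found after heat shock and no common summit at 20 °C. The rpn-2 summit after heat shock, at 670.6, thus had a higher peak score than those of uba-1, aip-1 and ubql-1, which were listed. The ubq-1 summit, at 114.3, had a lower one. With so few genes nothing is claimed for any list.

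**Figure D4:**
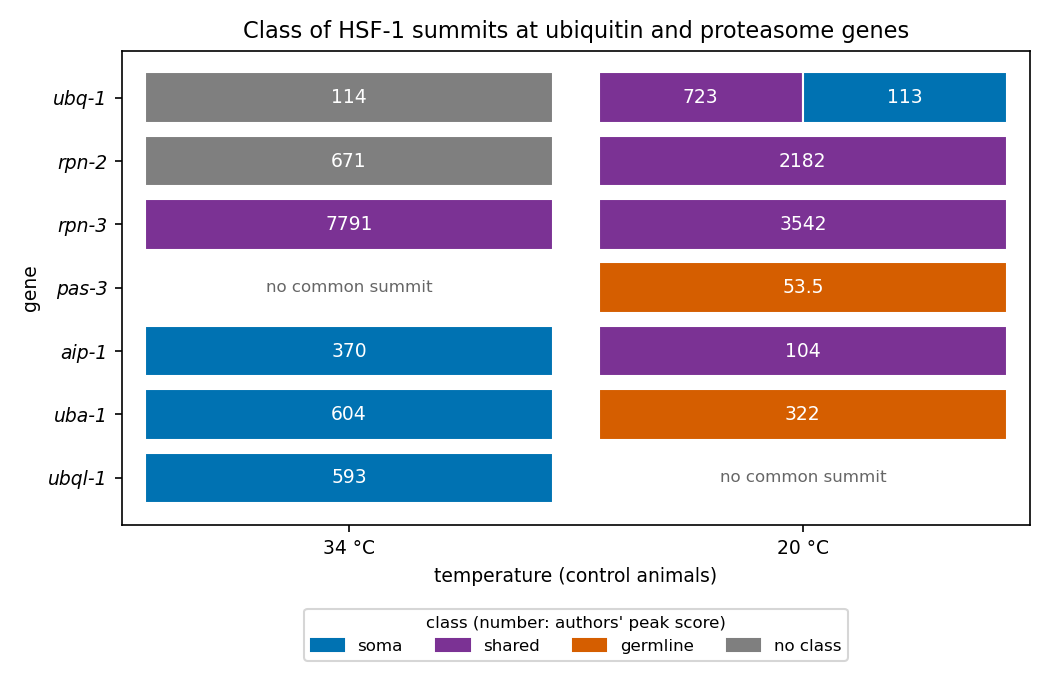
Class of the HSF-1 summits at the 7 ubiquitin and proteasome genes that had a common summit up to 2000 bp from a start site, after heat shock at 34 °C (left) and at 20 °C (right), with the authors' peak score printed in each block. After heat shock ubq-1 and rpn-2 (top) are in no class, rpn-3 is shared, and aip-1, uba-1 and ubql-1 are in the soma class; at 20 °C ubq-1 has a shared and a soma summit and rpn-2 a shared one.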

How the data were processed

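HSF-1 ChIP-seq lists from young adult C. elegans were used; RNA polymerase II and input libraries are not analysed here. Per the submitters' processing notes, Bowtie2 and MACS2 were used, and no version is named. The build and the settings stand as not given in the sources used here. Whether replicates were pooled is not stated. The deposited values are scores: a peak score for each summit and a differential score for each region lost on depletion, per the file headers. The header of the differential score names the negative log of a p-value without a base, and it was used as a score. The peak names place the summits in the soma strain. The depth behind a score, and the precision it has, are unknown, since no list holds values per library. The number of per-sample columns left unused is 0.

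The germline list for 34 °C had 100 rows, 92 of them distinct, and exact repeats were dropped. All 413 listed summits after heat shock and 468 at 20 °C were found among the common summits. A summit was given to every gene with a protein-coding TSS (Ensembl release 115, WBcel235, without the mitochondrial chromosome) within 2000 bp, and paired across temperatures within 100 bp. No model was fitted and no test was made. Functions were tested on simulated summits. Members and lists were chosen with earlier results of these data known.

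Named genes were ubq-1, rpn-2, genes with a start site within 2000 bp of their summits, genes of the fixed lists with a common summit, and those of the 3 summits most alike by class, state and score. Other genes that were named are neighbours. Alternatives changed the TSS distance, the pairing distance, the score minimum, the position by 500 bp, and, for the gene lists, the nearest TSS alone. For ubq-1 and rpn-2, the RefSeq start and the nearest TSS alone were chosen after seeing the data. The planned motif search was left out, since no genome sequence was in use. Python 3.11.15, numpy 2.4.6 and matplotlib 3.10.9 were used.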

Additional observations from a re-analysis of the deposited data

How the results depend on the processing

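Of 68 alternative values for 14 results, 49 equalled the reported value, 5 changed but stayed within 1.5 times of it, and 14 moved further. The 5 were counts of bound genes of the 8 lists. In place of 6 at each temperature, these were 4 after heat shock and 4 at 20 °C with a TSS distance of 500 bp, 5 at 20 °C with 1000 bp, and 4 and 4 with each summit given only to its nearest start site. With a TSS distance of 500 bp, the common summits after heat shock were 0 at ubq-1 and 0 at rpn-2. At 20 °C that distance left 1 common summit and 1 class row at ubq-1, the proximal soma one, and 0 and 0 at rpn-2. With only summits at or above the median score of the file, ubq-1 and rpn-2 each had 0 after heat shock, and ubq-1 had 1 at 20 °C. The bound genes of the 8 lists were then 1 after heat shock and 3 at 20 °C, in place of 6 and 6. With only class rows at or above the median of their list, ubq-1 had 0 at 20 °C. With that nearest-site rule, rpn-2 had 0 common summits after heat shock and 0 at 20 °C, as C23G10.7 is nearer. For ubq-1 and rpn-2 this rule was chosen after seeing the data, and for the lists it was planned. In each case the alternative's own limit removed the summits. TSS distances of 1000 and 5000 bp, moves of 500 bp, the RefSeq start, and pairing within 50, 200 or 500 bp left the counts at ubq-1 and rpn-2 as reported. The moves and the pairing limits could not have changed them. The summits lay 100 to 940 bp from a start site, and the nearest summits at the other temperature were 26, 31 and 814 bp away. No paired analysis was possible because no list gives a value for a single library, and for the same reason no replicate could be left out. The planned motif alternatives were not run. Library depth and replicate spread are unknown, so that a site outside the lists is not shown to be unbound.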
